A study of Mus musculus with 2 samples.

Results

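The 10 genes described here belong to the unfolded protein response and the integrated stress response and were read across the cell classes and hepatocyte zones of regenerating mouse liver: Hspa5, Dnajb9, Sdf2l1, Creld2, Herpud1, Xbp1, Atf4, Ddit3, Trib3 and Asns. They were picked by symbol, with earlier results of these data known, and are 10 of the 27998 genes in the deposited tables. All 10 have 1 row each. The study compared 12-week-old C57BL/6 mice named Sox9f/f, in which the gene for the transcription factor Sox9 carries loxP sites, with mice named Sox9HKO. Every animal had undergone partial hepatectomy (PHx), in which lobes of the liver are cut away, 48 h earlier, and no unoperated liver was analysed here. Single-nucleus RNA sequencing by droplet-based 3′ tagging gave 1 library per group, titled HKO and WT. The labels do not spell out HKO, and the Cre driver, the deleted part of Sox9 and the number of animals per library are not given in the sources used here.

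The endoplasmic reticulum (ER) folds the proteins that a cell secretes, and hepatocytes secrete most of the plasma proteins. When unfolded proteins build up there, the sensors IRE1, ATF6 and PERK are freed of the chaperone that Hspa5 encodes and signal to the nucleus. IRE1 splices the Xbp1 transcript, ATF6 is cut into a transcription factor, and PERK phosphorylates eIF2α, which slows translation while Atf4 is translated more. Other kinases reach the same eIF2α step in amino acid shortage, which is why Atf4 targets such as Asns, Ddit3 and Trib3 are counted in the integrated stress response as well. Xbp1 splicing and Atf4 translation cannot be read from gene-level counts of UMIs (unique molecular identifiers), which report only transcript abundance.

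With 1 library per group none of the differences below could be checked against replicates or tested. Levels are summed UMIs of a class scaled to a class total of 1000000 (CPM), and intervals are exact 95% intervals that cover counting error only. A gene is called higher or lower where the log2 ratio of CPM, after adding 0.5, is at least 1 in size. The HKO library held 61123904 UMIs in 14912 barcodes and the WT library 64609301 in 14701, with medians of 3286 and 3430 UMIs over all these barcodes. Of them, 14902 in HKO and 14515 in WT were kept as nuclei. The libraries shared 70 barcodes, 0.469% and 0.476% of each. Sox9 itself stood at 5.80 CPM (5.06 to 6.62) in HKO against 11.4 CPM (10.4 to 12.5) in WT hepatocyte-like nuclei, so its transcript was present in the library labelled HKO. A 3′ count need not lie within the deleted part.

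Clustering gave 17 clusters, most of them drawn nearly wholly from 1 library. Hepatocyte-like nuclei were mainly clusters 1, 7 and 10 in HKO (8662 nuclei, 38254614 UMIs) and clusters 0, 4 and 9 in WT (9624 nuclei, 43427818 UMIs), so a difference between libraries within the class is also one between clusters. Their median mitochondrial share of UMIs was 0.0740% in the HKO library against 0.270% in the WT library. The 15 hepatocyte markers summed to 13709 CPM in HKO against 28117 CPM in WT, with Alb, which encodes albumin, at 2535 and 6120 CPM. Set against nuclei of the same library named for other classes, 11 to 13 of the 15 were higher in clusters 0, 1, 7 and 10. In cluster 9 it was 8. In cluster 4, with 1900 WT nuclei, it was 4, at a median log2 fold of -0.07, so these markers do not set that cluster apart. Hepatocyte transcripts reached every other class: in endothelial-like nuclei the 15 markers stood at a median of 88.7% (HKO) and 104% (WT) of what they reached in hepatocyte-like nuclei. The part that this RNA and the mitochondrial share have in the differences between libraries was not tested.

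Promoter sequences are shown for the members whose 250 bases before the RefSeq start (GRCm38.p6) hold a stress element, because these are the letters that ATF6, XBP1 or ATF4 are known to read. The ER stress response element, CCAAT and CCACG with 9 bases between them on either strand, was found in Hspa5 and Creld2 and in 37 of 32851 promoters in all (0.113%). Its second form, ATTGG and CCACG with 1 base between them, was found in Herpud1 and in 10 promoters (0.0304%). The C/EBP-ATF element, TTNCATCA, was found in Herpud1 and Asns and in 1134 promoters (3.45%). TGACGTGG, the UPR element, was in 0 members and 0.563% of promoters. CCACG alone, which is also the end of both ER stress elements, was in 7 members and 28.3% of promoters. Capitals mark the fixed letters of the elements, and sequences run 5′ to 3′ on the strand of the gene. Those of Herpud1 (chr8:94386279-94386428, + strand) and Creld2 (chr15:88819496-88819645, + strand) are the last 150 bases before the start. Those of Hspa5 (chr2:34772020-34772049, + strand) and Asns (chr6:7693210-7693239, - strand) are 30 bases around the match. The GENCODE models of Hspa5 and Asns begin further upstream than those of RefSeq, so these windows lie inside the gene spans given for them below.
Herpud1: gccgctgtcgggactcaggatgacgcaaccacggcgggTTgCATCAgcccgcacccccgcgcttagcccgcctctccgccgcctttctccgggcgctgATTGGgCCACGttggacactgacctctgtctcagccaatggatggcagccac
Creld2: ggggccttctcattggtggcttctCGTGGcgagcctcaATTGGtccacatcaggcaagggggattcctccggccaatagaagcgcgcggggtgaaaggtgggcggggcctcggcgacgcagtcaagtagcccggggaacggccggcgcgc
Hspa5: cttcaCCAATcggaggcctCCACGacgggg
Asns: agccacaTGATGaAActtcccgcacgcgtt
The Creld2 and Asns matches are on the opposite strand and so appear reversed. In Herpud1 the C/EBP-ATF element lies 112 to 105 bases and the ER stress element 52 to 42 bases before the start. The Hspa5 element lies 65 to 47 bases and the Creld2 element 126 to 108 bases before the start. A match is a description of letters, not of binding, and the windows of Dnajb9, Sdf2l1, Xbp1, Atf4, Ddit3 and Trib3 held none of these elements apart from CCACG alone. The GENCODE models of Dnajb9 and Ddit3 also begin further upstream than those of RefSeq. The Dnajb9 window lies wholly and the Ddit3 window partly inside the gene span, and bases before the GENCODE start of Dnajb9 were not searched.

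In hepatocyte-like nuclei the members did not differ between the libraries in 1 direction. Herpud1, Ddit3 and Creld2 were higher in HKO, Hspa5 and Dnajb9 were near level, and Xbp1 and Atf4 were lower in HKO by less than the size for a call. Of the 10 members, 7 had a mean of at least 10 CPM and could be called. Of these, 3 were higher and 0 lower, where 2.97% of all 8414 genes were higher and 4.48% were lower. Because the members were chosen with earlier results of these data known, these shares are a description and not a test. The median log2 ratio of the 7 was -0.03, and that of all genes 0.16. Summed over the 10 members, the level was 884 CPM (874 to 893) in HKO against 687 CPM (679 to 695) in WT. The difference in Herpud1 alone was larger than that in the sum, since Xbp1, Hspa5 and Atf4 had the opposite sign.

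**Figure D1:**
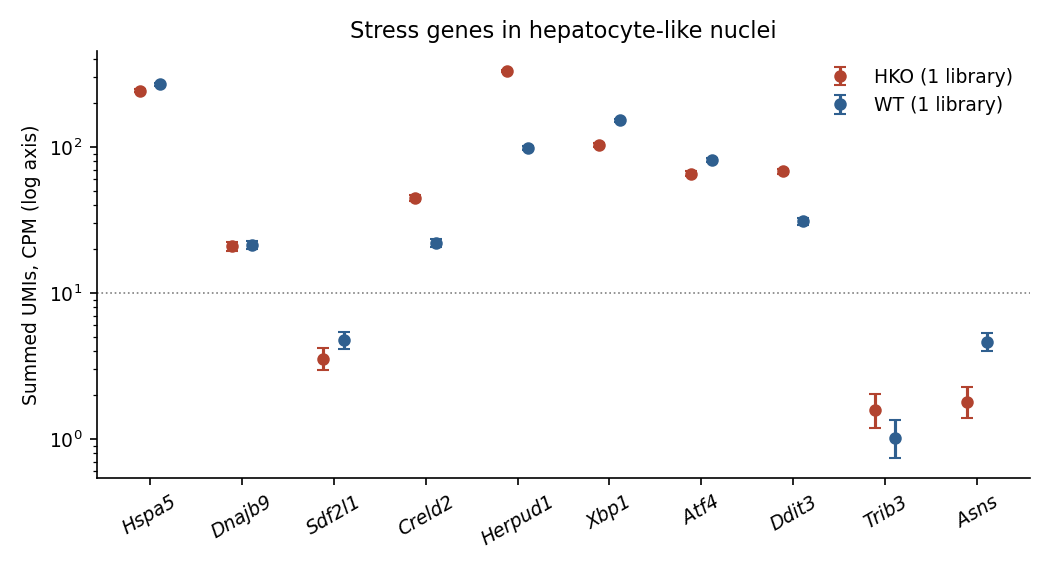
Level of each of the 10 members in hepatocyte-like nuclei of the HKO and WT libraries, in CPM of summed UMIs on a log axis, with exact 95% Poisson intervals. The dotted line marks 10 CPM; Sdf2l1, Trib3 and Asns lie under it, and Herpud1 stands at 330 CPM in HKO against 98.7 CPM in WT.

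Herpud1 encodes an ER membrane protein that brings ubiquitin ligases and their substrates together for degradation. It lies at chr8:94386438-94395377 (GRCm38, + strand). Its level was 330 CPM (324 to 336) in HKO against 98.7 CPM (95.8 to 102) in WT hepatocyte-like nuclei. The HKO level was 3.34-fold higher (3.23 to 3.46), a log2 ratio of 1.74, which ranked 60 among the 8414 genes. Gm15890, an unnamed gene model on the opposite strand, overlaps Herpud1, and no source used here says whether counting was by strand. Gm15890 had 2.09 CPM in HKO against 0.668 CPM in WT.

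Among the 4 members that are chaperones or folding factors of the ER, Creld2 reached the size for a call, Hspa5 and Dnajb9 did not, and Sdf2l1 lay under the floor. Creld2, a resident protein with disulfide isomerase activity, lies at chr15:88819646-88826683 (+ strand). Its level was 44.6 CPM (42.5 to 46.8) in HKO against 21.99 CPM (20.6 to 23.4) in WT, 2.03-fold higher in HKO (1.87 to 2.20). Its log2 ratio of 1.005 sat at the limit for a call and passed it under 4 of the 11 alternative choices of nuclei, scaling and pseudocount. Hspa5 encodes BiP, the main Hsp70 chaperone of the ER, at chr2:34771970-34777547 (+ strand). Its level was 243 CPM (238 to 248) in HKO against 268 CPM (264 to 273) in WT, 1.10-fold higher in WT (1.07 to 1.13). Its log2 ratio of -0.14 became 0.01 among nuclei with a mitochondrial share of 0.1 to 0.3% of UMIs.

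Dnajb9 encodes ERdj4, a co-chaperone of BiP, at chr12:44205559-44210326 (- strand). It stood at 20.9 CPM in HKO against 21.3 CPM in WT, and the interval of its fold, 0.891 to 1.08, includes 1. Sdf2l1, a partner of the ERdj3 co-chaperone at chr16:17130138-17132383 (- strand), had 135 UMIs in HKO and 206 in WT. Its levels were 3.53 CPM (2.96 to 4.18) and 4.74 CPM (4.12 to 5.44), too low to be called at this floor. Herpud1 and Creld2 therefore differed from Hspa5 and Dnajb9 in the size of the ratio, with intervals that do not overlap.

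The transcription factors of the group went both ways. Xbp1, the factor made active by IRE1, lies at chr11:5520659-5525893 (+ strand). Its level was 104 CPM (101 to 107) in HKO against 153 CPM (149 to 157) in WT, 1.47-fold higher in WT (1.41 to 1.53). The log2 ratio of -0.55 placed it at 870 from the lowest of 8414 genes. Atf4, the effector of the PERK and amino acid arms, lies at chr15:80255184-80257541 (+ strand). Its level was 65.6 CPM (63.0 to 68.2) in HKO against 82.0 CPM (79.3 to 84.7) in WT, 1.25-fold higher in WT (1.19 to 1.32). Neither reached a log2 ratio of 1 in size.

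Ddit3 encodes CHOP, a factor induced by Atf4 that promotes cell death under lasting stress. Its level was 68.2 CPM (65.6 to 70.9) in HKO against 31.0 CPM (29.4 to 32.7) in WT, 2.20-fold higher in HKO (2.06 to 2.35). The log2 ratio of 1.13 ranked 189 from the highest, opposite in sign to that of Atf4. Ddit3 (chr10:127290774-127296288, + strand) is overlapped on the other strand by Mars, which encodes methionyl-tRNA synthetase. Mars had 13.9 CPM in HKO against 16.7 CPM in WT, lower in the library in which Ddit3 was higher.

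Trib3 and Asns, 2 further targets of Atf4, were below the floor of 10 CPM. Trib3, a pseudokinase at chr2:152337422-152344032 (- strand), had 60 UMIs in HKO and 44 in WT, that is 1.57 and 1.01 CPM. Asns, asparagine synthetase, at chr6:7675169-7693254 (- strand), had 69 UMIs in HKO and 202 in WT. Its level was 1.80 CPM (1.40 to 2.28) in HKO against 4.65 CPM (4.03 to 5.34) in WT, 2.58-fold higher in WT (1.95 to 3.44). With the floor set at 1 CPM, Asns was the single member called lower in HKO, at a log2 ratio of -1.16. Ddit3 and Asns, both known Atf4 targets, thus had ratios of opposite sign.

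Scaling moves these ratios as a whole. Median ratio size factors lowered the median of all genes by 0.14 on the log2 scale and TMM factors lowered it by 0.12. Higher genes made up 39.9% of all calls with class totals, 26.2% with median ratio size factors and 28.0% with TMM factors. Herpud1 remained called under both, Ddit3 was at 0.99 and 1.003, and Creld2 was at 0.87 and 0.88. Against the all-gene median of 0.16 with class totals, Hspa5 lay lower than its fold alone shows, at rank 6383 of 8414 from the highest.

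The share of nuclei with a UMI differed between the libraries in the same direction as the summed levels for the 6 members other than Dnajb9 that passed the floor. After each nucleus was thinned to 2000 UMIs, which left out 964 shallower HKO and 141 WT nuclei, Herpud1 was seen in 46.5% (45.4 to 47.7) of the HKO and 18.0% (17.2 to 18.8) of the WT nuclei. Unthinned, Herpud1 was seen in 69.2% of HKO and 33.6% of WT nuclei, whose median depths were 3925 and 3779 UMIs. Ddit3 was seen in 12.7% and 5.98% of thinned nuclei and Creld2 in 8.68% and 4.37%. Hspa5 was seen in 37.7% of HKO and 42.8% of WT nuclei, Xbp1 in 19.5% and 26.4%, and Atf4 in 12.6% and 15.4%. Dnajb9 was seen in 4.39% (3.94 to 4.87) and 4.07% (3.68 to 4.49), with overlapping intervals, while Sdf2l1, Trib3 and Asns stayed under 1% in both libraries. At this depth a nucleus held UMIs of 1.43 members on average in HKO and 1.19 in WT, and 18.0% of HKO and 24.7% of WT nuclei held none. Among endothelial-like nuclei, a class read with the same free RNA, thinning left out 1120 in HKO and 22 in WT. The HKO shares are thus those of the deeper nuclei of the class. The 1192 HKO and 1101 WT nuclei kept gave 42.8% and 15.4% for Herpud1 and 37.2% and 45.6% for Hspa5. These shares are close to those of hepatocyte-like nuclei, and free RNA and RNA made in the nucleus cannot be told apart from such shares.

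In the other large classes Herpud1 was again higher in HKO, and Xbp1 and Atf4 were again at higher levels in WT. In endothelial-like, macrophage-like and stellate-like nuclei, the floor was a mean of 50 CPM, which left Hspa5, Herpud1, Xbp1 and Atf4. Herpud1 was the 1 member of 4 higher in HKO in each of these classes, and 0 were lower. Of all genes, 2.69% were higher and 4.84% lower in endothelial-like nuclei, 2.5% and 4.23% in macrophage-like nuclei and 2.55% and 4.72% in stellate-like nuclei. The median log2 ratio of the 4 members was -0.26, -0.26 and -0.23 in these classes, against 0.20, 0.14 and 0.18 for all genes.

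**Figure D2:**
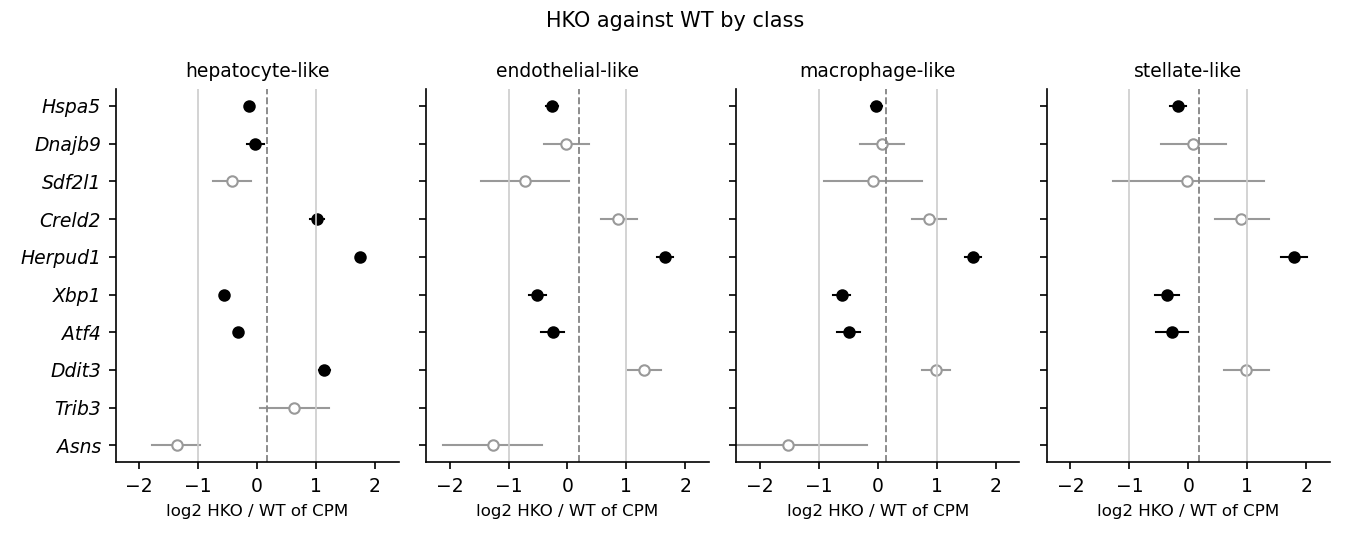
Log2 ratio of HKO to WT CPM for each member in 4 classes, with exact 95% intervals. Filled points passed the floor of the class, open points did not, the dashed line is the median of all genes compared and grey lines mark a size of 1; pools with under 20 UMIs of a gene are not drawn. Herpud1 lies to the right of 1 in all 4 classes.

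Most endothelial-like nuclei were of cluster 2 in HKO (2259 of 2312) and of cluster 11 in WT (819 of 1123), and macrophage-like nuclei were of cluster 5 in HKO and cluster 8 in WT with few exceptions, so library and cluster cannot be told apart there either. Stellate-like nuclei formed 1 cluster in both. Endothelial-like nuclei held Herpud1 at 294 CPM in HKO against 93.7 CPM in WT, a 3.14-fold difference (2.85 to 3.47). Macrophage-like nuclei held it at 279 and 91.3 CPM (3.06-fold, 2.78 to 3.37). Stellate-like nuclei held it at 251 and 72.8 CPM (3.45-fold, 2.97 to 4.04). The 3 folds have intervals that overlap each other and that of hepatocyte-like nuclei. Ddit3, under the floor in these classes, was at 62.3 and 25.3 CPM in endothelial-like nuclei, 65.1 and 32.9 CPM in macrophage-like nuclei and 58.8 and 29.8 CPM in stellate-like nuclei. Xbp1 was 1.43-fold (1.29 to 1.58), 1.53-fold (1.38 to 1.69) and 1.28-fold (1.11 to 1.47) higher in WT in the same order of classes.

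Set against its level in hepatocyte-like nuclei of the same library, Herpud1 was at lower values in the 3 other large classes, though not beyond counting error in each. In HKO it stood at 89.2% (85.4 to 93.1) of the hepatocyte-like level in endothelial-like, 84.6% in macrophage-like and 76.2% in stellate-like nuclei. The medians of the 15 hepatocyte markers there were 88.7%, 86.8% and 80.0%. In WT, Herpud1 stood at 94.9% (86.2 to 104), 92.5% (84.4 to 101) and 73.7% (63.6 to 85.0), so that the first 2 intervals include 100%, beside marker medians of 104%, 86.8% and 101%. For Herpud1 these data do not tell RNA made in these classes from RNA of hepatocytes. Hspa5 stood at 112% (106 to 117) of the hepatocyte-like level in HKO macrophage-like nuclei, where the hepatocyte markers ranged from 76.7% to 102%. In WT macrophage-like nuclei it stood at 103% (97.7 to 108), beside markers from 79.7% to 90.8%. Other members also stood above the highest marker in WT macrophage-like nuclei, among them Creld2 at 110% (91.9 to 131) and Ddit3 at 106% (91.0 to 123). Atf4 at 98.5% (89.4 to 108), Xbp1 at 96.7% (90.1 to 104) and Herpud1 at 92.5% did so too, but their intervals include the highest marker. Macrophage-like nuclei had a higher median mitochondrial share than hepatocyte-like nuclei, 0.154% against 0.0740% in HKO and 0.341% against 0.270% in WT, and its part in these levels was not tested. The order of Hspa5 levels over the classes with at least 100 nuclei in each library ran, in HKO, from 243 CPM in hepatocyte-like to 244 CPM in endothelial-like, 245 CPM in stellate-like and 272 CPM in macrophage-like nuclei. In WT it ran from 268 CPM in hepatocyte-like to 276 CPM in macrophage-like, 277 CPM in stellate-like and 294 CPM in endothelial-like nuclei. Neighbours in each order overlapped in their intervals. The ends did not overlap, with 260 to 284 CPM in HKO macrophage-like against 238 to 248 CPM in HKO hepatocyte-like nuclei, and 279 to 309 CPM in WT endothelial-like against 264 to 273 CPM in WT hepatocyte-like nuclei.

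In the smaller classes, named from their own markers, Hspa5 ranged from 257 CPM in B-like to 279 CPM in T and NK-like nuclei in HKO. In WT it ranged from 271 CPM in T and NK-like to 304 CPM in cholangiocyte-like nuclei, with 28 to 97 nuclei per class. The intervals of all these classes overlapped. Plasma, neutrophil, erythroid and mesothelial classes could not be named, since fewer than 0.5 of their markers were detected.

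Hepatocytes along the path from the portal tract to the central vein differ in metabolism, and the members were read along this axis. Within each library, hepatocyte-like nuclei were ranked by pericentral against periportal markers, 20 genes each, and split into 3 equal parts of 2887 or 2888 nuclei in HKO and 3208 in WT. Glul, glutamine synthetase of the pericentral zone, was at 368 CPM in the pericentral and 27.3 CPM in the periportal part of HKO, and at 603 and 55.1 CPM in WT. Glul is among the genes that set the parts. Among the 7 members with a mean of at least 10 CPM, 0 differed between the outer parts by a log2 ratio of 1 in either library. Of all genes, 1.12% were higher pericentrally and 0.717% periportally in HKO, and 1.15% and 1.1% in WT.

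**Figure D3:**
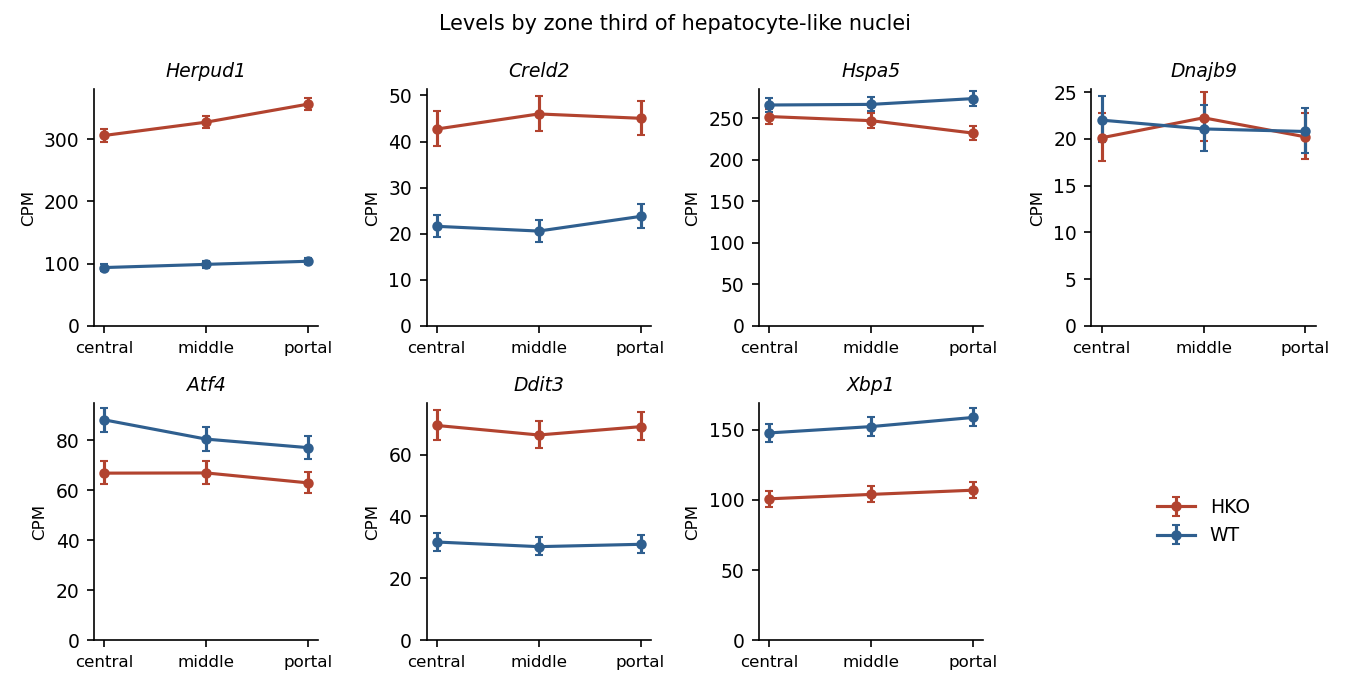
Level of 7 members, in CPM with exact 95% Poisson intervals, in the pericentral, middle and periportal part of hepatocyte-like nuclei in each library. The vertical axes start at 0. The HKO to WT folds of Herpud1, Ddit3, Creld2 and Xbp1 are of similar size in all 3 parts, while the gap in CPM between the Herpud1 lines is widest periportally.

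Herpud1 was 1.16-fold higher periportally in HKO (1.12 to 1.22), at 306 CPM pericentrally, 327 CPM in the middle and 356 CPM periportally. In WT the same gene ran from 93.7 to 98.8 and 104 CPM, 1.11-fold higher periportally (1.03 to 1.19). Both libraries placed its highest level in the periportal part. Atf4 had its highest level in the pericentral part of WT, 88.2 CPM against 77.1 CPM periportally, 1.14-fold (1.06 to 1.24). In HKO, Atf4 stood at 66.9 and 63.0 CPM and the interval, 0.963 to 1.17, includes 1. Hspa5 was 1.09-fold higher pericentrally in HKO (1.03 to 1.14), at 252 against 232 CPM. In WT the Hspa5 levels of 266 and 273 CPM gave an interval of 0.930 to 1.02 for pericentral over periportal. Xbp1 was 1.07-fold higher periportally in WT (1.01 to 1.14), and its interval in HKO, 0.982 to 1.15, includes 1. For Dnajb9, Creld2 and Ddit3 the intervals included 1 in both libraries.

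The difference between libraries was also read in each part of the axis. Herpud1 was higher in HKO by 3.26-fold pericentrally, 3.31-fold in the middle and 3.43-fold periportally, with overlapping intervals. Ddit3 was higher by 2.19-fold, 2.19-fold and 2.23-fold in the same order, and Creld2 by 1.98-fold, 2.23-fold and 1.90-fold. Xbp1 was higher in WT by 1.47-fold, 1.47-fold and 1.49-fold. Asns, with few counts, was higher in WT by 2.48-fold, 2.63-fold and 2.62-fold. Atf4 was higher in WT by 1.32-fold, 1.20-fold and 1.22-fold. Hspa5 differed along the axis: its HKO level was 0.948 of the WT level pericentrally (0.904 to 0.994), 0.926 in the middle and 0.848 periportally (0.809 to 0.890), and the outer intervals do not overlap. The median mitochondrial share, in the same order, was 0.0770%, 0.0789% and 0.0667% in HKO and 0.262%, 0.281% and 0.267% in WT. The parts were cut within each library, so the periportal part ended at a log2 marker ratio of -1.58 in HKO and -1.29 in WT. The part that either has in the Hspa5 ratios was not tested.

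Mitochondrial transcripts in a nuclear preparation come from cytoplasm, so levels were also read within ranges of the mitochondrial share of UMIs. Hspa5 was higher where this share was larger, in both libraries. In HKO hepatocyte-like nuclei it stood at 229 CPM where the share was under 0.1%, 249.5 CPM from 0.1 to 0.3% and 314 CPM over 0.3%. In WT the levels were 215, 248 and 313 CPM. Over 0.3% against under 0.1%, Hspa5 was 1.37-fold higher in HKO (1.29 to 1.46) and 1.46-fold higher in WT (1.36 to 1.56). Within each range the interval of the HKO to WT fold of Hspa5 included 1, at folds of 1.07 (0.998 to 1.14), 1.005 (0.958 to 1.05) and 1.004 (0.944 to 1.07). The ranges held 5200, 2415 and 1047 nuclei in HKO and 759, 4647 and 4218 in WT.

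**Figure D4:**
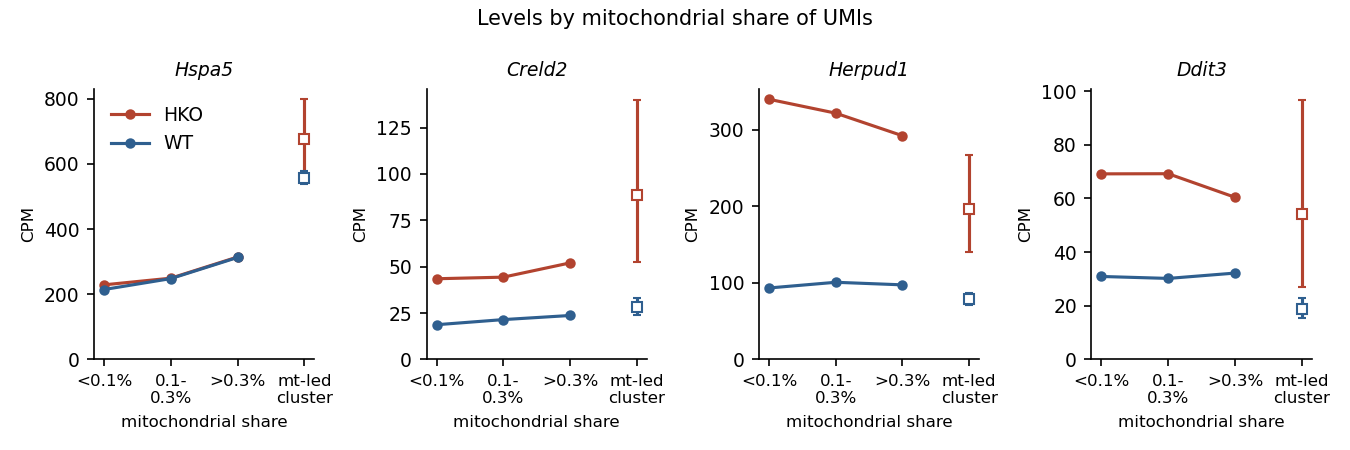
Levels of 4 members in CPM by mitochondrial share of UMIs in hepatocyte-like nuclei (points) and in the cluster led by mitochondrial transcripts (open squares, with exact 95% Poisson intervals), for each library. Hspa5 stands at 314 and 313 CPM over 0.3% in HKO and WT, and Herpud1 at 292 and 97.4 CPM.

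None of the 7 members reached a log2 ratio of 1 between these ranges, where 1.29% of genes were higher and 0.179% lower in the nuclei over 0.3% in HKO, and 0.359% and 0.0359% in WT. Herpud1 went the other way in HKO, from 340 CPM under 0.1% to 292 CPM over 0.3%, 1.16-fold lower with the larger share. In WT it was at 93.4 and 97.4 CPM, with an interval of 0.939 to 1.16 for over 0.3% against under 0.1%. Within the ranges the log2 ratio of Herpud1 between the libraries was 1.86, 1.67 and 1.58, with intervals of the fold of 3.31 to 4.01, 3.02 to 3.37 and 2.78 to 3.24. Creld2 was 2.32-fold, 2.07-fold and 2.20-fold higher, and Ddit3 2.24-fold, 2.29-fold and 1.88-fold. Over 0.3% the log2 ratio of Ddit3 was 0.90, short of the size for a call.

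A cluster led by mitochondrial transcripts held 84 HKO and 1886 WT nuclei and was kept apart from the hepatocyte-like class after the values were seen. Its Hspa5 level was 678 CPM (569 to 801) in HKO against 557 CPM (538 to 578) in WT. In WT that was 2.08-fold the hepatocyte-like level (1.99 to 2.16), and Hspa5 was the 1 of 7 members called higher there, beside 4.88% of all genes. Herpud1 in the same WT nuclei was at 78.5 CPM, 1.26-fold lower than in hepatocyte-like nuclei, and Ddit3 at 18.8 CPM, 1.65-fold lower. The 15 hepatocyte markers stood at a median of 218% of their hepatocyte-like level in these WT nuclei (66.6% to 271%), a range that holds the Hspa5 value, and their part in it was not tested. With these nuclei counted as hepatocyte-like, the log2 ratio of Hspa5 between libraries moved from -0.14 to -0.29.

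Partial hepatectomy drives hepatocytes into the cell cycle, and the members were read in thinned nuclei with at least 3 UMIs of S phase genes, with at least 3 of G2 and mitosis genes, or with neither. HKO had 568, 393 and 6737 nuclei in these states and WT 1532, 1126 and 6825. None of the 5 members in HKO and 4 in WT with a mean of at least 50 CPM reached a log2 ratio of 1 against neither state. In G2 and mitosis 2.82% of genes in HKO and 2.02% in WT were higher, and in S phase 0.754% and 0.472%. Lower were 0.0761% and 0.136% in G2 and mitosis, and 0% and 0.0278% in S phase. Herpud1 in HKO was at 334 CPM in neither state, 289 CPM in S phase and 294 CPM in G2 and mitosis. In WT its levels were 105, 90.7 and 89.3 CPM. The ratio to neither state had an interval under 1 in both states in WT (0.756 to 0.981 in S phase, 0.728 to 0.984 in G2 and mitosis) and in S phase in HKO (0.770 to 0.967), while that of G2 and mitosis in HKO, 0.767 to 1.004, reached 1. Atf4 in WT was at 87.2 CPM in neither state and 66.2 CPM in G2 and mitosis, 1.32-fold lower there, with an interval of 0.636 to 0.901 for the ratio. In HKO, Atf4 stood at 68.7 and 59.8 CPM, with an interval of 0.635 to 1.17. Xbp1 in WT was at 159 CPM in neither state and 136 CPM in G2 and mitosis, with an interval of 0.753 to 0.961. Its other intervals included 1: 0.901 to 1.10 in WT S phase, 0.954 to 1.36 in HKO S phase and 0.631 to 1.03 in HKO G2 and mitosis.

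Nuclei with more Hspa5 UMIs held the other measured members at similar levels, but this split cannot show whether members rise together in a nucleus. Of the thinned nuclei, 62.3% in HKO and 57.2% in WT held 0 Hspa5 UMIs, and 28.5% and 31.3% held 1. At such counts the group of a nucleus depends on the sampling of single UMIs. Thinned hepatocyte-like nuclei with 0, 1 and at least 2 Hspa5 UMIs numbered 4799, 2191 and 708 in HKO and 5421, 2968 and 1094 in WT. Herpud1 stood at 325, 334 and 337 CPM over these nuclei in HKO and at 102, 98.4 and 101 CPM in WT. Creld2 stood at 45.8, 47.7 and 48.1 CPM in HKO and at 21.95, 24.4 and 24.2 CPM in WT. Ddit3 stood at 69.4, 74.9 and 67.2 CPM in HKO and at 31.5, 32.4 and 27.5 CPM in WT. Intervals of the first and last of each run overlapped for these 3 genes in both libraries. Atf4 in HKO ran from 65.3 CPM (60.3 to 70.6) to 69.6 and 79.2 CPM (65.2 to 95.3), again with overlap. The median mitochondrial share was 0.0672%, 0.0757% and 0.0884% in these HKO nuclei, and its part in the levels was not tested.

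The other genes of the pathway were taken from 7 lists of 147 genes in all, of which 118 had a mean of at least 10 CPM. Of these, 3 were higher in HKO (2.54%) and 4 lower (3.39%), near the shares of all genes (2.97% and 4.48%), and their median log2 ratio was 0.06 against 0.16. The calls per list below were made with class totals only and were not read under the other scalings.

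**Figure D5:**
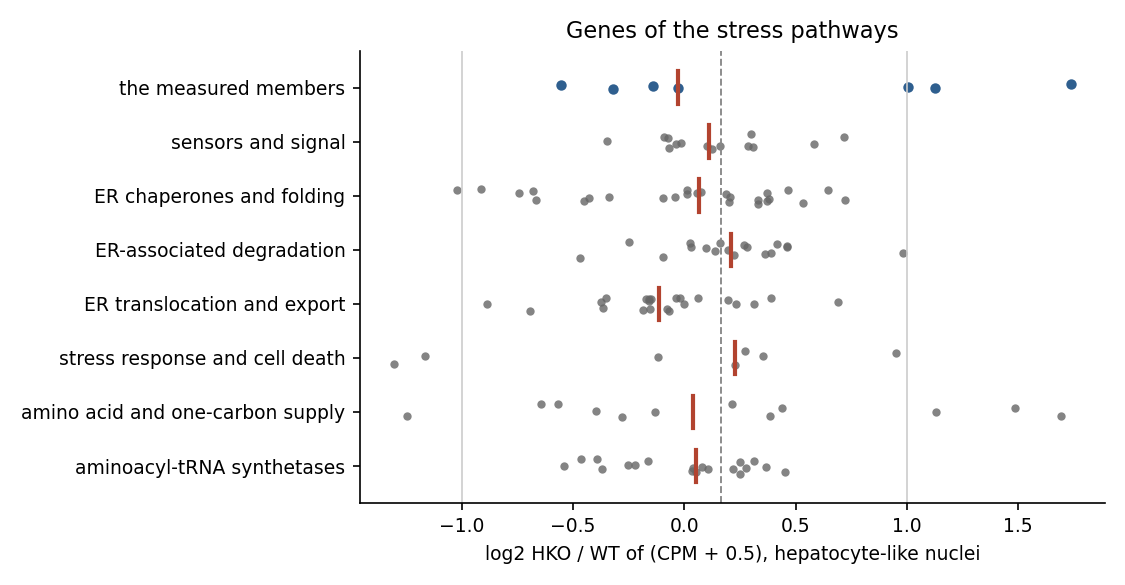
Log2 ratio of HKO to WT (CPM + 0.5) in hepatocyte-like nuclei for the genes of 7 pathway lists and the 7 measured members. Each point is a gene, red bars are list medians, the dashed line is the median of all genes at 0.16 and grey lines mark a size of 1. List medians lie between -0.11 and 0.23.

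The sensors and signal list had 0 of 14 genes called in either direction. Creb3l3, an ER-bound factor of hepatocytes that acts in lipid and acute phase responses, was 1.64-fold higher in HKO (324 against 197 CPM). Eif2ak3, which encodes PERK, was 1.499-fold higher in HKO (114 against 76.1 CPM), and Eif2ak2, the kinase PKR, was 1.28-fold higher in WT. Both are below the size for a call.

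Of 26 ER chaperone and folding genes, 0 were higher and 1 lower in HKO. The gene called was Fkbp2, a prolyl isomerase, at 16.1 CPM in HKO against 33.2 CPM in WT, a log2 ratio of -1.02. Cnpy2 and the isomerase gene Ppib were 1.92-fold and 1.68-fold higher in WT. Some classical partners of Hspa5, named here after their values were seen, went both ways. Dnajc3, which encodes the co-chaperone p58IPK, was 1.65-fold and the chaperone gene Hyou1 1.45-fold higher in HKO, while calreticulin, Calr, was 1.61-fold higher in WT.

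Herpud1 acts in ER-associated degradation, and 0 of 18 other genes of that list were called. The deubiquitinase gene Yod1 was 2.01-fold higher in HKO (29.6 against 14.8 CPM), a log2 ratio of 0.98. Syvn1, the ubiquitin ligase HRD1 that Herpud1 works with, was 1.38-fold higher in HKO, and Vimp 1.39-fold higher in WT. The list median of 0.21 compares with 1.74 for Herpud1 itself.

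Of 22 genes of ER translocation and export, 0 were called and the median was -0.11. The signal peptidase subunit Spcs1 and the translocon subunit Sec61g were 1.90-fold and 1.63-fold higher in WT, and Mcfd2, a cargo receptor subunit, was 1.62-fold higher in HKO.

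Of 7 measured genes of the stress response and cell death list, 2 were lower in HKO and 0 higher. Gdf15, a secreted stress hormone and target of Atf4 and Ddit3, was at 16.0 CPM in HKO against 40.2 CPM in WT, 2.52-fold higher in WT (2.29 to 2.76). Nfil3, a leucine zipper repressor, was 2.27-fold higher in WT. Bcl2l11, which encodes the death factor Bim, was 1.997-fold higher in HKO at a log2 ratio of 0.95.

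Amino acid and one-carbon supply held the widest spread, with 3 of 12 genes higher and 1 lower in HKO, beside 2.97% and 4.48% of all genes. Mthfd1l, a mitochondrial folate enzyme, was at 52.7 CPM in HKO against 15.9 CPM in WT, 3.31-fold higher in HKO (3.03 to 3.61). The alanine transaminase gene Gpt2 was at 404 and 144 CPM, 2.80-fold higher (2.72 to 2.89). Got1, an aspartate transaminase gene added to complete the count after its value was seen, was 2.20-fold higher. Slc1a4, a neutral amino acid transporter gene, was 2.45-fold higher in WT (2.17 to 2.76), as Asns was by 2.58-fold.

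All 19 aminoacyl-tRNA synthetase genes were measured, 0 were called, and ratios ran from -0.54 for Tars to 0.45 for Dars. Wars was 1.39-fold higher in WT. The list median was 0.05.

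The genes whose levels ran most like the members were sought over 20 pools of nuclei, among 3779 genes averaging 50 CPM or more. The pools were the classes and hepatocyte zones of both libraries, and they included the cluster led by mitochondrial transcripts. Hspa5 stood at 678 CPM (HKO) and 557 CPM (WT) in that cluster, against 232 to 299 CPM in the other pools. The part of that cluster in the correlations was not tested. For Hspa5 the highest Pearson correlations of log2(CPM + 1) were those of Prdx1 (0.945), Mup20 (0.936), Rps10 (0.933), Ftl1 (0.932) and Rps27a (0.925). Hspa5 itself correlated at -0.28 with Herpud1, 0.41 with Xbp1 and 0.35 with Atf4 over the same pools. For the summed members the highest were Serpina3m (0.922), Mt2 (0.914), Hsp90ab1 (0.910), Mt1 (0.907) and Gpt (0.896). The pools share 2 libraries and the free RNA of each, so these values describe the libraries and pools.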

How the data were processed

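Nuclear RNA of livers 48 h after partial hepatectomy was measured in 1 HKO and 1 WT library, grouped by sample title. The deposited values are raw UMI counts per gene and barcode, made with Cell Ranger 5.0.0 per the file headers; the submitters' processing notes list GRCm38, Seurat 3.2.0 and STAR without saying how each was used. Per the labels' protocols total RNA was extracted, although the molecule is nuclear RNA. Whether intronic reads or the strand were used in counting, and whether doublets were removed, no source used here says.

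Barcodes needed 500 genes and less than 10% mitochondrial UMIs, which removed 10 in HKO and 186 in WT. No doublet caller was run; leaving out the 5% of barcodes with most UMIs in each library was an alternative. Joint clustering of the libraries, with no correction for library, used 2000 variable genes, none of them a member, 30 principal components and 15 neighbours (scikit-learn 1.9.0, igraph 0.11.9, leidenalg 0.10.2, resolution 0.5). A cluster took a name other than hepatocyte-like by its log2 folds over the other nuclei of its library. At least 3 of that class's markers, and the median of its detected markers, needed a log2 fold of at least 1. No other class could be ahead among its 10 leading genes. Hepatocyte-like clusters were then named against the nuclei so named. The rule there was weaker: at least 3 hepatocyte markers higher by any amount, with the same rule for leading genes. These naming steps and the marker floor of 20 CPM were set after the data were seen. The 10 members and all gene lists were chosen with earlier results of these data known.

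Counts were summed per library and class, with Poisson, conditional and Clopper-Pearson intervals (95%). Genes named are the members, up to 3 genes of each pathway list with the largest ratio in size, if they averaged 10 CPM or more, and the 5 genes most correlated with Hspa5 and with the summed members, without Xist, Y-linked and mitochondrial genes or unnamed gene models. Genes outside this rule are marked where they appear. The calculation was tested on simulated data. Alternatives covered clustering resolution, depth, weights, scaling (edgeR 4.0.16 under R 4.3.3 for TMM), mitochondrial share, cycling nuclei, doublets, classes, pseudocount, floor, size and zone rule. Gene positions come from GENCODE vM21 (GRCm38), which matched 27645 of 27998 identifiers, and promoters from RefSeq. Scripts ran under Python 3.11.15 with scipy 1.17.1, numpy 2.4.6, matplotlib 3.10.9 and pandas 2.3.3.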

Additional observations from a re-analysis of the deposited data

How the results depend on the processing

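Among the ratios between libraries, 88 of 110 values moved by less than counting error under the alternatives and 22 moved further, and in the zone ratios this held for 60 of 60. No called member changed sign. Herpud1 kept a log2 ratio between 1.60 and 1.77, Ddit3 between 0.99 and 1.19, and Creld2 between 0.87 and 1.03, short of the size under 7 of 11 alternatives. The number of members higher in HKO was 3 and became 1 under median ratio size factors and 1 with a floor of 50 CPM, where 4 members could be called. It became 2, without Creld2, at resolution 1, with TMM factors, without cycling nuclei, with all nuclei, with a pseudocount of 1 and with the cluster led by mitochondrial transcripts. The number lower was 0 and became 1 with a floor of 1 CPM (Asns) and 1 with a log2 size of 0.5 (Xbp1). Of all genes, 250 were higher and 377 lower; the counts were 428 and 593 with a floor of 1 CPM, 124 and 176 with a floor of 50 CPM, and 1150 and 990 with a size of 0.5. These floors and sizes change which genes can be called. At clustering resolution 1, 3709 HKO nuclei could not be named and 5177 stayed hepatocyte-like. Counting the cluster led by mitochondrial transcripts as hepatocyte-like was chosen after seeing the data. No paired analysis was possible because each group has 1 library. Sdf2l1, Trib3 and Asns are limited by depth, with 44 to 206 UMIs in the hepatocyte-like nuclei of a library.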
